A study of Homo sapiens with 5 samples.

Results

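Acetylation of histone H3 at lysine 27 (H3K27ac) was measured by ChIP-seq in HCT116 cells, a human colorectal carcinoma line, and the 415 peaks described here had a higher signal after interferon beta (IFN-β) than in control cells. They were chosen by measured values. A peak was taken where it lay on chromosomes 1 to 22 or X, where its mean log2 signal over all H3K27ac libraries was 4 or more, and where its log2 signal with IFN-β was above that of the control. Of the 20087 peaks in the table, 13997 on these chromosomes had the required mean signal and are called well covered, and 415 of these (2.96%) were higher after IFN-β. Since the difference between the groups chose the peaks, it is given as a description and was not tested.

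The cells were the CMV-osTIR1 RAD21-mAC derivative of HCT116, in which the cohesin subunit RAD21 carries a degron tag and the auxin receptor osTIR1 is driven by the CMV promoter. All samples were kept in 0.1% DMSO for 6 h. IFN-β was then added at 1000 unit/ml for 60 min in 2 libraries, and 2 control libraries, labelled as 0 min, received nothing further, so that time in culture and IFN-β cannot be told apart. There was 1 input library, each experiment used 500000 cells, and nothing in the sources says that the libraries of a group came from separate cultures. Marker genes of the labelled cell type had peaks, with a peak near 12 of 15 epithelial and intestinal genes, and those of other cell types mostly did not, with a peak near 1 of 10 leukocyte genes and 2 of 10 fibroblast and endothelial genes. Peaks were absent near the intestinal genes KRT20, CDX1 and VIL1.

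Each signal below is the authors' mean of the 2 libraries of a group, on a log2 scale of normalized reads. Values of single libraries are not in the table. No signal therefore carries an SD, and the spread between libraries is unknown. A log2 signal of 4 stands for 16 normalized reads, and if normalized reads are taken as counted reads, a difference between both groups at that level has a counting error of about 0.361. The center of the table was not at 0. The median difference of the well-covered peaks was -0.72, so a peak with a difference of 0 already stood 0.72 above the median peak, and 125 well-covered peaks lay as far below the median (under -1.44) as the chosen peaks lay above it. With a difference of 0 as the line, 50 of the 415 peaks were above it by more than 2 counting errors, and 25 of these 50 were within 20 kb of an interferon gene listed for this work.

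H3K27ac marks active promoters and enhancers, where acetyltransferases are brought in by transcription factors. Type I interferons such as IFN-β bind a receptor made of IFNAR1 and IFNAR2, whose kinases JAK1 and TYK2 phosphorylate STAT proteins, among them STAT2. These join IRF9 to form the complex ISGF3, which binds the interferon-sensitive response element (ISRE) in the promoters of interferon-stimulated genes. The products of these genes sense viral RNA, block viral replication, present antigens and feed back on the signal.

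The ISRE was searched as its core, GAAA and GAAA separated by any 2 bases, on either strand and within 500 bp of the peak center, and its longer form as the core followed by CT. The longer form contains the core, and runs of more than a pair of GAAA blocks give overlapping matches. The sequences that follow are from the GRCh38 reference, 5′ to 3′ on the strand of the element, with the core in capitals. They are promoters among the 10 largest differences that hold a core, MX1 as an effector, the unlisted gene PLEKHA4, and distal peaks, so that the spacing and the flanks can be compared.
IFI6, chr1:27672261-27672363, minus strand: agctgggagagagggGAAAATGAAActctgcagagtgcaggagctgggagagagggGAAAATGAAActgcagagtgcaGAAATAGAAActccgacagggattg
TRIM21, chr11:4393666-4393695, minus strand: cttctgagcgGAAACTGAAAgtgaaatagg
IFIT1, chr10:89392497-89392526, minus strand: accgaaagggGAAAGTGAAActaaagctag
PNPT1, chr2:55693507-55693536, plus strand: tccaaacccgGAAAGGGAAAtttggaattt
SP110, chr2:230220467-230220496, plus strand: attacaggaaGAAATTGAAAtgaaagggaa
ISG15, chr1:1013380-1013409, plus strand: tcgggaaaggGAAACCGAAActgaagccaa
SAMD9, chr7:93118096-93118125, minus strand: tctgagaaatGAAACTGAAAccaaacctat
MX1, chr21:41420559-41420588, plus strand: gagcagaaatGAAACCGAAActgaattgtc
PLEKHA4, chr19:48868589-48868618, minus strand: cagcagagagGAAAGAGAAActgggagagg
distal peak nearest HINT1, chr5:130549926-130549955, minus strand: tcattactggGAAATTGAAActtaagtggg
distal peak nearest IRS2, chr13:109257377-109257406, minus strand: atttaattttGAAATAGAAAcgtctccttg
The promoter of IFI6 holds 3 cores within 103 bases, each followed by CT, and 2 of them lie in a repeated unit with the same core. In the peaks of IFIT1, ISG15, MX1 and PLEKHA4 and in the distal peak nearest HINT1, the core shown was also followed by CT, and in those of TRIM21, PNPT1, SP110, SAMD9 and the distal peak nearest IRS2 it was not. IFIT1 and ISG15 held 3 cores each, of which only the core shown was followed by CT. At TRIM21 and ISG15 a further core overlaps that in capitals and is left in lower case.

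The peaks with the largest differences lay mostly at promoters of interferon genes. Leaving aside a peak on chromosome 3 that is described further on, the difference was largest at IFI6, an interferon-induced mitochondrial protein, where the log2 signal was 5.30 with IFN-β and 3.36 in the control, a 3.84-fold higher level. The peak (chr1:27671921-27672921) was centered 209 bp from the start site, within a lncRNA gene. At TRIM21 (chr11:4393046-4394046, in an intron), a cytosolic antibody receptor and ubiquitin ligase, it was 4.72 with IFN-β and 2.96 in the control (3.39-fold). At IFIT1 (chr10:89391838-89392838, in an intron of LIPA), which binds viral RNA that lacks host cap methylation, it was 5.65 and 4.06 (3.01-fold). These peaks all started from a low or moderate control signal, and TRIM21 had the lowest control signal of the 44 peaks near listed genes. The mitochondrial exonuclease gene PNPT1 (chr2:55693223-55694223, over coding sequence) followed with 5.99 against 4.58 (2.66-fold), and the nuclear body gene SP110 (chr2:230219602-230220602, in an intron) with 5.06 against 3.66 (2.64-fold). ISG15, the ubiquitin-like modifier, had 6.58 against 5.28 (2.46-fold). IRF9, the DNA-binding part of ISGF3, had 6.40 against 5.11 (2.45-fold), at chr14:24160980-24161980 in an intron. ISG15 and IRF9 were thus also among the 10 chosen peaks with the highest signal after IFN-β. The last of the 10 largest were TPD52, with 5.80 against 4.57 in an intron 4315 bp from a start site, and SAMD9, an antiviral restriction factor, with 4.86 against 3.69.

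**Figure D1:**
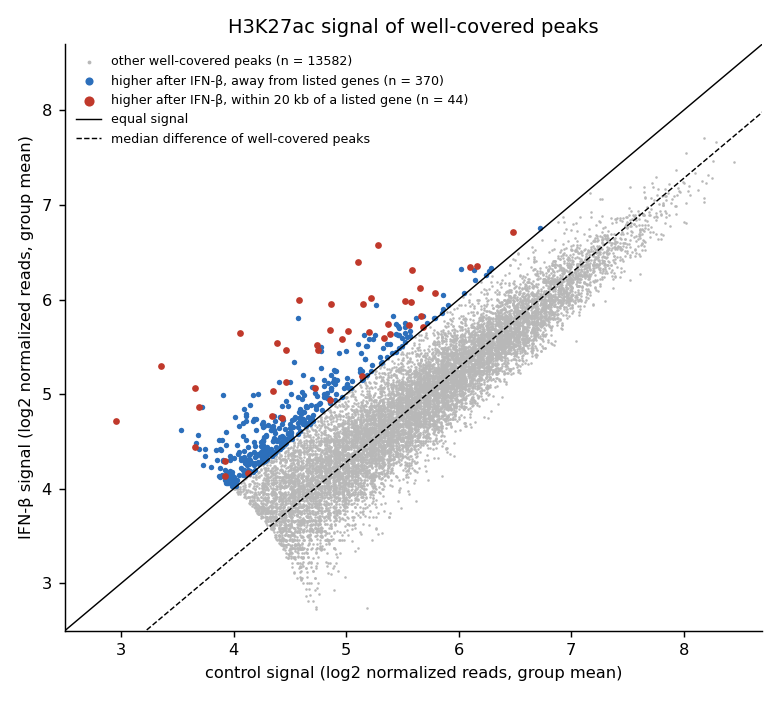
Log2 H3K27ac signal with IFN-β (y axis) against control (x axis), as group means of normalized reads, for well-covered peaks. Red points are the 44 chosen peaks within 20 kb of a listed interferon gene, blue points 370 others, grey points 13582 peaks not higher after IFN-β; the solid line is equal signal and the dashed line the median difference of -0.72, and the chosen peak with a control signal of -0.17 lies outside the axes. The red points reach farthest above the solid line.

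Most of the 415 differences were small. They ran from 0.01 to 11.39 with a median of 0.18 and quartiles of 0.07 and 0.35, and 15 peaks exceeded 1. The peaks just inside the limit, with a difference of 0.01, lay nearest COX4I2, RBCK1 and SMOX, and those just outside it, with a difference of 0, lay nearest BAIAP2, KLF6 and ADAM9. At the limit on mean signal, the peaks nearest GRIK4, MSRB3 and ABHD2 (4.00, with differences of 0.12, 0.13 and 0.24) were taken and those nearest TMC5, EPS8 and PITPNC1 (3.99, 3.98 and 3.98, with 0.22, 0.75 and 0.37) were not. A difference above 0 was more frequent under that limit, in 771 of 6039 peaks (12.8%).

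The chosen peaks were mainly distal. Their center lay within 1 kb of the start site of a protein-coding transcript in 110 of 415 (26.5%, 95% Wilson interval 22.5 to 31%), compared with 9017 of the 13582 other well-covered peaks (66.4%). A further 39 (9.40%) lay 1 to 5 kb from a start site. The other 266 were distal, more than 5 kb away. Distal peaks inside protein-coding genes made up 141 of the 415 (34%) and those outside them 125 (30.1%), compared with 12.8% and 15.5% of the other peaks. The median distance to a start site was 13408 bp against 261 bp. The center fell in an intron in 205 of the chosen peaks (49.4%) and in 38% of the others. These intervals cover the counting of peaks only, and neighbouring peaks are not independent.

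The chosen peaks also had a lower GC content. Its median was 45% over the central 1 kb, against 61% in the other well-covered peaks, and the median ratio of observed to expected CpG was 0.265 against 0.731. With the well-covered peaks divided into 4 parts by GC content, 283 chosen peaks were in the part of lowest GC content (8.06% of that part), and 83, 37 and 12 in the following parts (2.36%, 1.06% and 0.345%). Position and GC content move together. Within these parts, promoters made up 9.89%, 50.6%, 78.4% and 91.7% of the chosen peaks and 14.6%, 70.4%, 85.5% and 91.7% of the others, so within each part the gap in promoter share was smaller than over all peaks. The part of GC content in the differences was not tested. Peaks wider than 1000 bp made up 17.8% of the chosen and 10.7% of the other peaks, and peaks with over 10% repeated 31-mers 24.6% and 15.4%.

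The share of promoters was not even over the size of the difference. Among 132 peaks with a difference of up to 0.1, 26.5% were promoters and 3.03% lay within 20 kb of a listed gene. Promoters made up 20% of 135 peaks between 0.1 and 0.25, 27.3% of 88 peaks between 0.25 and 0.5 and 28.9% of 45 peaks between 0.5 and 1, and 5.93%, 11.4% and 26.7% lay near a listed gene. Above 1, 11 of 15 peaks (73.3%) were promoters and 10 (66.7%) lay near a listed gene. Over the 5 ranges, from small to large, the share with an ISRE core was 25%, 23.7%, 21.6%, 44.4% and 66.7%, so it was higher only above 0.5. The share with an AP-1 site (TGACTCA or TGAGTCA) was 50%, 49.6%, 42%, 31.1% and 6.67%.

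**Figure D2:**
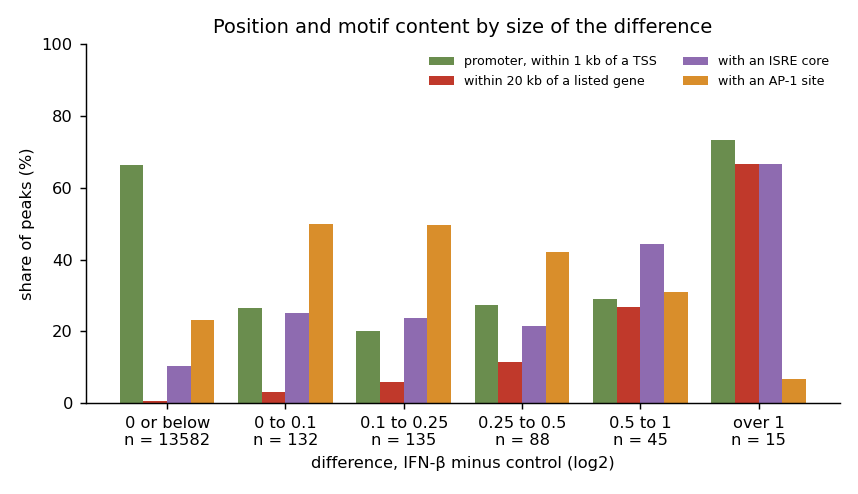
Share of peaks (y axis, %) that were promoters, lay within 20 kb of a listed interferon gene, or held an ISRE core or an AP-1 site, by difference between IFN-β and control (x axis, log2, with the number of peaks). The leftmost bars are the well-covered peaks that were not higher after IFN-β, 66.4% of them promoters, and the shares near listed genes go from 3.03% to 66.7% from the smallest to the largest differences above 0.

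Interferon genes were considered through a list of 139 genes in 14 groups. Within 20 kb of a start site of these genes lay 44 of the chosen peaks (10.6%), compared with 98 of the other well-covered peaks (0.722%), and 42 of the 44 were promoters. The shares within 5 kb were 10.1% and 0.427%, and within 100 kb 11.6% and 2.37%, so only 4 further chosen peaks were found between 20 kb and 100 kb. Counted by gene, 95 listed genes had a well-covered peak within 5 kb, and 48 of them (50.5%) had a chosen one, beside 1.6% of all 10429 protein-coding genes with such a peak. The median difference at the peak nearest the start site was -0.05 for the listed genes and -0.77 for all protein-coding genes. Neighbouring genes can share a peak, and the 48 genes rested on 42 chosen peaks. Since the difference chose the peaks, these counts describe where they lie and are no test of the list. The list was also set with earlier results of these data known.

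In the signalling pathway itself, the ISGF3 genes STAT2 and IRF9 had chosen peaks and the receptor genes did not. The log2 signal at the promoter of STAT2 was 6.12 with IFN-β and 5.66 in the control, a smaller difference than that of IRF9. The promoters of IFNAR1 (-0.66), IFNAR2 (-0.67), JAK1 (-0.47 and -0.82 at separate start sites) and TYK2 (-0.41) were lower after IFN-β, as was the median peak. Among interferon regulatory factors, IRF7, which amplifies the interferon response, had 6.31 and 5.59. IRF1 had 5.83 and 5.67 at 1 start site and a difference of -0.16 at a peak 5476 bp away. IRF2 (-0.01 and -0.77 at separate peaks) and IRF3 (-0.64) had no chosen peak.

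Antiviral effectors and sensors had the most chosen peaks, at 15 of the 20 genes of their group with a well-covered peak. RIGI, a cytosolic sensor of viral RNA, had 5.95 with IFN-β and 4.87 in the control on the log2 scale. HELZ2, a helicase and coactivator, had 5.47 and 4.47. EIF2AK2, the dsRNA-activated kinase that stops translation, had 5.95 and 5.15, and MX1, a GTPase that blocks viral nucleocapsids, had 4.44 and 3.66. These differences of 0.78 to 1.08 contrast with small ones at other genes of the group. The sensor gene IFIH1 had 5.64 and 5.39, and the RNA-editing gene ADAR 6.71 and 6.48. APOL2, DDX60L, NMI, SAMHD1 and TENT5A had no chosen peak, and the DDX60L peak had a high signal in both groups (7.13 and 7.17).

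The IFIT genes had chosen peaks at all 3 members with a well-covered peak, with differences of 1.59 at IFIT1, 0.39 at IFIT5 and 0.05 at IFIT3. The last of these was 5.19 with IFN-β and 5.14 in the control, which is within the counting error. The genes of the ISG15 system had chosen peaks at ISG15, at HERC6, a ligase of the HERC family (5.03 and 4.35), and at USP18, which removes ISG15 and dampens the receptor (4.75 and 4.43). Among nuclear body genes, PML had 5.54 and 4.39 and SP100 5.58 and 4.96, and SP140L had no chosen peak (-0.24 and -0.51). OAS3, an oligoadenylate synthetase activated by dsRNA, had 5.74 and 5.37. The IFITM3 peak had 5.67 and 5.02, but 64.6% of its 31-mers occur more than once in the reference. Where the copies lie, and whether reads from them were counted in this peak, was not examined.

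Antigen presentation genes were divided. Chosen peaks lay at 5 of 14 genes, namely TAP2 with 5.52 and 4.74, TAP1 and PSMB9, which share a peak between divergent start sites, with 5.59 and 5.34, HLA-B with 4.17 and 4.13, and B2M with 5.71 and 5.68. The differences of HLA-B (0.04) and B2M (0.03) were at the edge of the rule. HLA-E (-0.17) and the immunoproteasome gene PSMB10 (-1.25) were not higher. In the TRIM group 4 of 9 genes had a chosen peak within 5 kb (TRIM21, TRIM14, TRIM5 and TRIM22, the last of which lies beside the peak of TRIM5), and TRIM38 had a chosen peak in an intron 8145 bp from its start site (4.29 and 3.92) beside a promoter peak at -0.21. Of the PARP genes, PARP9 and DTX3L share a promoter peak with 5.98 and 5.52. The remaining group of feedback and other responsive genes had chosen peaks within 5 kb of 6 of 19 genes. RNF31 is counted among the 6, though the peak at a start site of RNF31 was not chosen (-0.48). LAP3, a leucine aminopeptidase, had 5.68 and 4.86. The feedback inhibitors SOCS1 (-0.59) and SOCS3 (-0.66) were lower than in the control, but less so than the median well-covered peak (-0.72). CISH had a chosen peak only at 13151 bp, in an intron of MAPKAPK3. The guanylate binding protein and chemokine groups had few well-covered peaks (3 genes) and no chosen one.

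**Figure D3:**
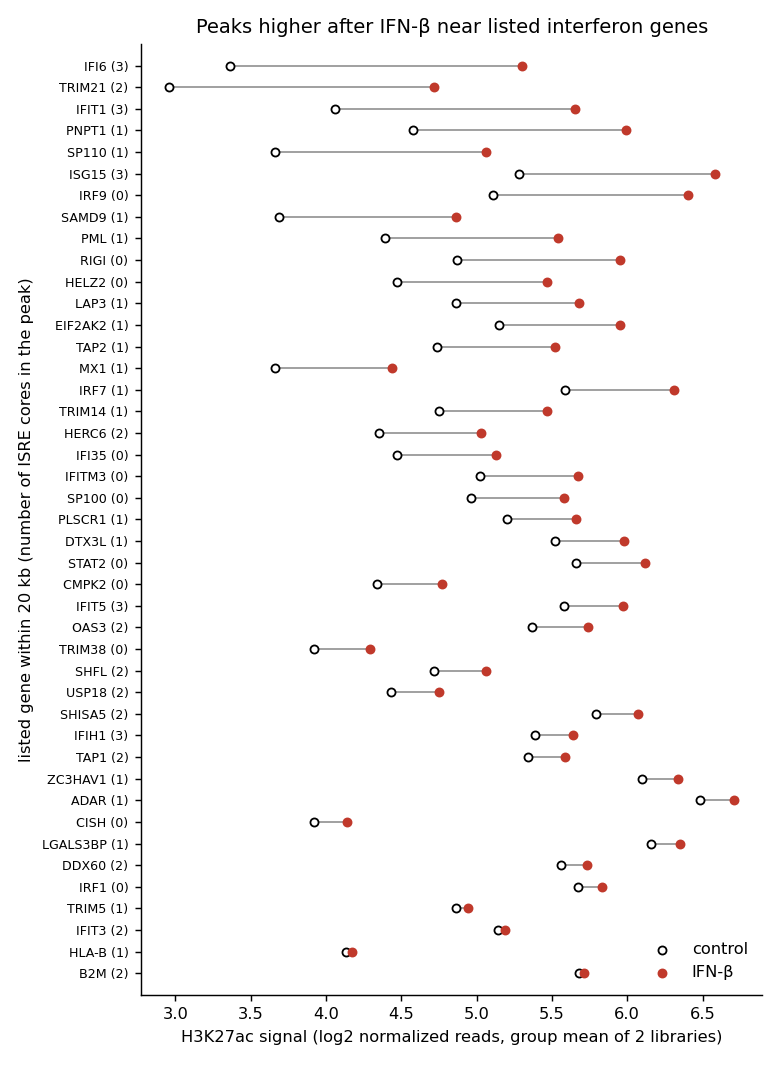
Log2 H3K27ac signal (x axis, group means of 2 libraries) in the control (open points) and with IFN-β (filled points) at 43 of the 44 chosen peaks within 20 kb of a listed interferon gene, ordered by difference, with the number of ISRE cores in brackets. The differences run from 1.94 at IFI6 to 0.03 at B2M.

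At several listed genes, a neighbour of the chosen peak was not itself chosen. Only 2.96% of all well-covered peaks were chosen, and the neighbours named here all lay above the median difference of -0.72. The peaks on either side of the ISG15 promoter peak, 6829 and 6949 bp away, had differences of -0.50 and -0.47, and a more distant one, near an upstream start site of ISG15, -0.53. A peak 12602 bp from that of IFI6 had equal signals of 4.38 in both groups. None of these neighbours held an ISRE core, and the IFI6 and ISG15 peaks held 3 each. At ADAR, a peak 19692 bp away had -0.68. The peak 14521 bp from that of IRF9, at RNF31, had 2 cores and a difference of -0.48, while the IRF9 peak had no core and a difference of 1.29.

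In other gene groups, listed for comparison, chosen peaks within 5 kb were found at NFKB2 among 8 NF-kappaB target genes with a well-covered peak, at EGR2 among 16 AP-1 and immediate early genes, and at EPCAM among 11 epithelial genes, shares of 12.5%, 6.25% and 9.09% from 1 gene each beside the 1.6% of all protein-coding genes. None were found at 13 stress response genes, 11 p53 targets, 5 Wnt targets, 16 cell cycle genes or 20 ribosomal protein genes, whose median differences ran from -0.75 (stress) to -1.03 (cell cycle).

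Of the 415 chosen peaks, 114 held the ISRE core (27.5%, Wilson interval 23.4 to 32%), as did 1403 of the 13582 other well-covered peaks (10.3%, 9.83 to 10.9%). Its longer form was present in 27 (6.51%) and 86 (0.633%). AP-1 sites were present in 44.6% and 23.1%, but within the 2 parts of lowest GC content, which held most chosen peaks, in 54.8% and 52.6% and in 25.3% and 23%. The GAS element (TTC and GAA separated by any 3 bases, the site of STAT dimers) was present in 30.8% and 20.7%. GC boxes (GGGCGG) were present in 38.8% and 75.6%, ETS sites (CCGGAA) in 21.4% and 43.5%, E-boxes (CACGTG) in 14% and 19.3%, CRE sites (TGACG followed by TCA) in 1.69% and 3.31%, and NF-kappaB sites in 14.2% and 21.5%. All were searched on both strands in the same 1 kb, and a match is not evidence of binding. For the sites other than the ISRE and AP-1, the gaps were smaller among promoters and among distal peaks, except for GAS at promoters. NF-kappaB sites were present in 25.5% of chosen and 24.8% of other promoters, and in 10.2% and 14.1% of distal peaks. E-boxes were present in 17.3% and 21.7% of promoters and in 12% and 13.7% of distal peaks. For GAS these shares were 28.2% and 17.4%, and 31.6% and 28%.

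These shares came from sets of peaks that differed. Of the 44 chosen peaks near listed genes, 33 (75%) held the core, 16 (36.4%) the longer form and 2 (4.55%) an AP-1 site. The 98 other well-covered peaks near listed genes held the core in 30.6%. Of the 371 chosen peaks away from listed genes, 81 (21.8%) held the core and 183 (49.3%) an AP-1 site, compared with 10.2% and 23.1% of other peaks away from listed genes. At distal peaks away from listed genes the gaps were smaller, with the core in 58 of 264 chosen peaks (22%) and 15.4% of the others, and an AP-1 site in 59.8% and 51.2%.

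Of the 27 chosen peaks with the longer form, 23 were promoters and 16 lay near listed genes. Among promoter peaks away from listed genes, it was present in 7 of 68 chosen peaks (10.3%) and in 0.425% of the others. Seen from the element, 23 of the 65 well-covered promoter peaks with the longer form were chosen (35.4%, beside 1.21% of all 9127 promoter peaks), but 2 of the 37 distal peaks with it (5.41%, beside 6.47% of all 4110 distal peaks). Away from listed genes, 7 of the 45 promoter peaks with the longer form were chosen (15.6%). With or without the element, the promoter peaks there were 68 chosen and 8936 others. Listed genes thus made up part of this contrast. Where a promoter had 2 or more cores, 17 of 101 peaks were chosen, and 15 of these 17 were among the 23 such peaks near listed genes.

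The gap in the core was uneven over GC content. Among the well-covered peaks of lowest GC content, the core was present in 26.1% of the chosen peaks (Wilson interval 21.4 to 31.6%) and 19.2% of the others (17.9 to 20.6%). In the next part it was 31.3% (22.4 to 41.9%) and 11.8% (10.7 to 12.9%), and in the third 35.1% (21.8 to 51.2%) and 6.95% (6.15 to 7.85%). Without the peaks near listed genes the shares were 24.5% and 19.1%, 17.5% and 11.6%, and 11.1% and 6.72%, with intervals that overlapped in each of these parts. The part with the highest GC content had 12 chosen peaks, 1 of them with a core. Away from listed genes it had 8 chosen peaks, with a core in 0%, compared with 3.9% of the others. Divided by mean signal instead, the part with the highest signal had 19 chosen peaks, of which 13 held the core (68.4%, 46 to 84.6%), compared with 9.68% of the others.

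**Figure D4:**
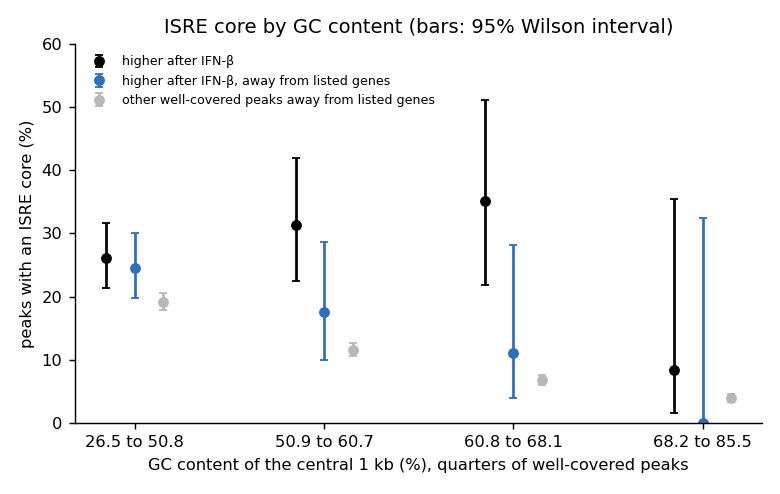
Share of peaks with an ISRE core (y axis, %, with 95% Wilson intervals over peaks) in 4 parts of the well-covered peaks by GC content of the central 1 kb (x axis, %). Black points are all 415 chosen peaks, blue points those away from listed genes, grey points other well-covered peaks away from listed genes. The black points, which include peaks near listed genes, are above the grey ones in each part, with wide intervals in the part with 12 chosen peaks. In that part the blue point, of 8 peaks, is at 0% and below the grey one.

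The cores near listed genes were close to start sites, but peak position and search window largely fixed this. Of the 44 peaks near listed genes 42 were promoters, and cores were searched within 500 bp of the center. In the 33 chosen peaks with a core near listed genes there were 53 cores, of which 52 lay within 500 bp of a start site of the listed gene and 35 lay upstream of it by up to 250 bp. The median position was 34 bp upstream of the start site. A core was found 34 bp upstream at IFIT1, 102 bp upstream at ISG15, 88 bp upstream at SAMD9 and 36 bp upstream at MX1, in the sequences printed above. CT followed 20 of the 53 cores. In the chosen peaks away from listed genes, with chromosome 8 left out of this count, 76 peaks held 91 cores, of which 16 lay within 500 bp of a protein-coding start site, 4 lay upstream by up to 250 bp and 11 were followed by CT. Their median distance from the peak center was 269 bp, against 168 bp near listed genes. Of all 371 chosen peaks away from listed genes, 264 were distal, and cores in those could not lie within 500 bp of a start site.

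**Figure D5:**
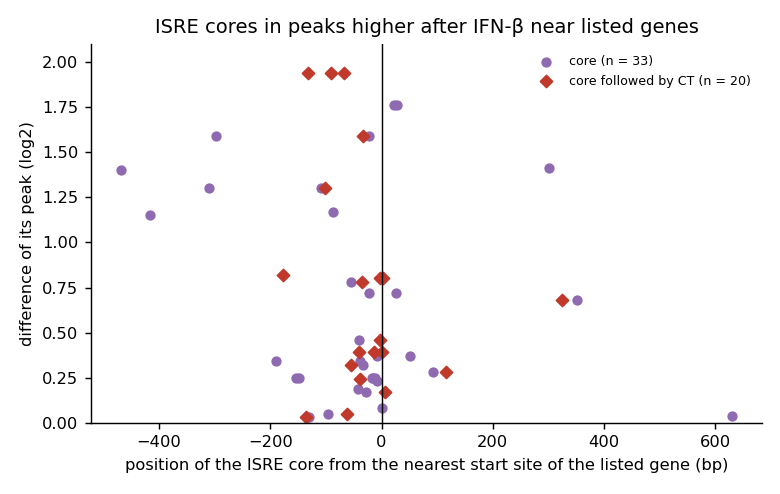
Position of each of the 53 ISRE cores in chosen peaks near listed genes relative to the start site (x axis, bp, negative upstream) against the difference of its peak (y axis, log2). Diamonds are the 20 cores followed by CT and circles the other 33. Most points lie just upstream of the start site at 0, at large and small differences alike.

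A core was not present at all promoters with large differences. IRF9, RIGI, HELZ2, IFI35, IFITM3, SP100, STAT2 and CMPK2 had differences of 0.43 to 1.29 with no core in the window, and neither had CMTR1. Conversely, B2M and IFIT3 held 2 cores each with differences of 0.03 and 0.05. No match says only that these letters are not within 500 bp of the peak center.

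Of the 110 chosen promoters, 68 were not near a listed gene. The genes named in this paragraph and the next were chosen after their values were seen. CMTR1, which methylates the first nucleotide of capped mRNA, had 4.99 with IFN-β and 3.91 in the control on the log2 scale. PLEKHA4 had 4.42 and 3.75 with 3 cores, and HSH2D, an SH2 domain adaptor, had 5.16 and 4.70 with none. ANXA2R followed with 4.71 and 4.26 and a single core. These are the largest differences of the 68, from 0.45 to 1.08, and the median over all 371 chosen peaks away from listed genes was 0.16. The differences of PLEKHA4, HSH2D and ANXA2R were smaller than 2 counting errors.

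The longer ISRE was found in the chosen promoter peak of SLFN5, a gene of the interferon-responsive Schlafen family, with a signal of 4.42 with IFN-β and 4.30 in the control, and in those of BMERB1 (4.15 and 3.90) and PHACTR4 (5.71 and 5.52). The transcription factor genes EGR2 (4.52 and 4.11) and NFKB2 (4.73 and 4.44) had promoter peaks with no core. Their differences, like those of SLFN5, BMERB1 and PHACTR4, were smaller than 2 counting errors.

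The distal chosen peaks began with 1 peak that stood apart. At chr3:93470021-93471021, which holds no annotated gene and lies 503116 bp from a start site of PROS1, the log2 signal was 11.22 with IFN-β and -0.17 in the control. This is the lowest control value of the table, so no fold is given. Its GC content was 30.8%, and 50.5% of its 31-mers occur more than once in the reference. It held 2 cores, both on the plus strand, which are shown with their flanks because they look alike.
chr3:93470217-93470246: gcccatgataGAAAAGGAAAtaccttcgta
chr3:93470982-93471011: gccaatggtaGAAAAGGAAAtatcttcgta
Both cores have the same letters, and neither is followed by CT.

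The next distal peaks were modest in level. A peak in an intron of APBB2, an adaptor of the amyloid precursor protein, had 4.86 with IFN-β and 3.72 in the control on the log2 scale. A peak in an intron of TJP1, which encodes the tight junction protein ZO-1, had 4.62 and 3.53, with an AP-1 site and no ISRE core. Outside genes, a peak nearest IRS2 had 4.57 and 3.68 with 1 core, at a distance of 529618 bp, and a peak nearest SNX7 had 4.99 and 4.17 with none. All started from a control signal near or under the minimum of 4. A peak nearest HINT1, named after its values were seen, had 4.48 and 3.67 with the longer form of the element and an AP-1 site, 615174 bp from the start site. Nearest genes at such distances are named for position only.

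Some chosen peaks had a high level and a small difference. A peak outside genes nearest MAP1LC3B2 had 6.76 with IFN-β and 6.72 in the control, and 1 nearest RPE65 had 6.33 and 6.29. ADAR, LGALS3BP (6.35 and 6.16) and the antiviral zinc finger gene ZC3HAV1 (6.34 and 6.10) were among the 10 highest with differences of 0.19 to 0.24. Of these 10 peaks, the promoters with a difference above 0.5 were those of ISG15, IRF9 and IRF7.

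Most chosen peaks shared no locus with another chosen peak, where 2.96% of all well-covered peaks were chosen. With peaks joined where centers lay within 50 kb, the 415 peaks formed 383 loci, of which 354 held a single chosen peak, 26 held 2 and 3 held 3, so that 61 peaks (14.7%) shared a locus. The loci of 3 lay in MACF1, a gene of a cytoskeletal linker (chr1:39391884-39399692, differences of 0.17, 0.18 and 0.17), at EHD2, which encodes a caveolar ATPase (chr19:47713070-47730254, 0.39, 0.18 and 0.08), and from COX4I2 into BCL2L1, an apoptosis inhibitor (chr20:31661682-31705238, 0.01, 0.42 and 0.30). None of these loci held a listed interferon gene, and all their differences were under 0.5.

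In 24 of the 29 loci with several chosen peaks, no other well-covered peak lay between the chosen ones. Only 2 of the 29 held listed genes. IFIT1 and IFIT5 lay 22607 bp apart with differences of 1.59 and 0.39, and TAP2 and TAP1 lay 15086 bp apart with 0.78 and 0.25. Other pairs, named after their values were seen, lay nearest SMAD3 (0.60 and 0.30) and in MET (0.19 and 0.03). Over chromosomes, the share of well-covered peaks that were chosen ran from 1.16% on chromosome 22 to 4.67% on chromosome 10.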

How the data were processed

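H3K27ac ChIP-seq libraries were made from 2 IFN-β and 2 control samples of HCT116 cells, with 1 input. Per the submitters' notes and methods, the authors trimmed reads with fastp 0.19.3 and mapped them to GRCh38 by Bowtie2. MACS2 then gave the peaks of every library relative to input, and the authors merged and counted them with DiffBind, which the authors ran with DESeq2. The deposited log2 signals are the authors' group means of normalized reads. The fold change, p-value and FDR columns hold the authors' own comparison and were not used. The depth of each library is not in the table, so its precision is given as a counting error, the square root of the summed inverse reads of both groups, on the log2 scale.

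Groups were taken from the sample labels. The difference is the IFN-β minus the control signal, and no test was run. Start sites were those of protein-coding transcripts in GENCODE release 44. GC content and motifs came from 500 bp on either side of the peak center, and repeats from 31-mers found more than once in the reference, after the search was checked on simulated sequences. Python 3.11.15, pandas 2.3.3, pysam 0.24.0 and scipy 1.17.1 were used. The chosen peaks and the gene lists were set with earlier results of these data known. Named are the 10 peaks with the largest difference and the 10 with the highest IFN-β signal, those near listed interferon genes, loci of 3 or more, the 5 distal peaks with the largest difference, and 3 peaks on each side of each threshold. Alternatives changed the signal and difference minimums, the distances, the motif, its window and the repeats. Peaks on unplaced sequences were left out of the rule, and some genes and sequences under it are not reported here.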

Additional observations from a re-analysis of the deposited data

Results flagged for a closer look

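Signal was also seen on sequences outside the chromosomes of the rule, above the control value. The peak at 1846 to 2846 of the contig KI270467.1 is an example, where the log2 signal was 6.91 with IFN-β and -0.17 in the control. At 565 to 1565 of KI270466.1 it was 5.57 with IFN-β and the same -0.17 in the control. That is the lowest control value of the table, as in the chosen peak on chromosome 3, and neither contig peak held an ISRE core.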

How the results depend on the processing

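No paired analysis was possible because the table holds group means and no value per library, and for the same reason no library could be left out and the spread between libraries is unknown. With a mean signal minimum of 3 there were 919 chosen peaks, 5.33% of them near listed genes, 20.2% in loci of several and 23.3% with the ISRE core. With a minimum of 5 there were 118, of which 36.4% were promoters, 55.9% distal, 25.4% near listed genes and 39% with the core. With a difference above 0.25 there were 148, of which 32.4% were promoters, 21.6% near listed genes, 8.11% in loci of several and 33.1% with the core. Above 0.5 there were 60, with 40% promoters, 53.3% distal, 36.7% near listed genes, 3.33% in loci of several and 50% with the core. Joining peaks within 20 kb or 100 kb put 11.1% or 18.6% in loci of several. The core was found in 14.7% within 250 bp of the center, its longer form in 6.51%, and the core in 21.8% without the peaks near listed genes. Without the peaks of over 10% repeated sequence there were 313 chosen peaks, and the 5 shares stayed within their counting intervals. Shares not given for a setting, including those for other promoter distances and distances to listed genes, stayed within these intervals too. With the median of the well-covered peaks in place of 0, an alternative chosen after seeing the data, 6951 peaks were chosen, of which 55.4% were promoters, 38% distal, 1.65% near listed genes, 54.1% in loci of several and 13.8% with the core. The set thus depends on both thresholds and on the zero of the difference, and at the minimum signal a difference under about 0.361 is within the counting error.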
